A study of Mus musculus with 4 samples.

Results

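The long terminal repeat (LTR) of the mouse endogenous retrovirus MERVL is named MT2_Mm, and many genomic copies of it stand without the internal, coding part of the element. Such copies carry the letter L at the end of their names in the deposited count table, and 1101 of 45773 features were of this kind, each counted separately. They were taken by that letter alone, which used no measured value. The letter is read here as an LTR and no internal part, since internal sequence is listed as MERVL-int and other names carry L_I or L_I_L. The copies are called by the number in their names, so that copy 482 is MT2_Mm482L. Their positions and sequences were not used here, so nothing is said of where a copy lies or which gene is near it.

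An LTR holds the promoter and the polyadenylation signal of a retrovirus, and recombination between the LTRs at either end of a provirus leaves a single LTR behind. The MT2_Mm promoter drives transcription at the 2-cell stage of the mouse embryo and in rare cells of an embryonic stem cell culture, and the transcription factor Dux binds it. A lone LTR can start transcripts that run into the DNA next to it, and it can also lie within the transcript of another gene, so reads over it need not come from its own promoter.

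The 4 libraries were made with an mRNA-seq kit from total RNA of E14 mouse embryonic stem cells, grown on gelatin in serum with LIF, for which the labels give the strain as 12910la. Each culture was transfected with a pSuper puro plasmid, 1000 ng, and selected from 24 h onwards in puromycin at 1 µg/ml for 4 days. In 2 libraries the shRNA was against MERVL (MuERVL in the labels' protocols) and in 2 it was random, on cells labelled wild type. The sources used here do not say which part of the element the shRNA matches. Nor do they say that replicates were separate cultures, and the spread behind each p-value is that between samples, which may be technical.

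Totals ran from 11628887 to 16067854 estimated counts per library. Values below are CPM, that is counts scaled to a common total by each library's own sum over all features, unless they are named as counts. Stem cell marker genes, 8 in number and including Pou5f1, Sox2 and Nanog, summed to between 7309 and 9000 CPM in each library. Fibroblast markers, 6 in number, summed to between 0.685 and 2.45 CPM, and Col3a1, Dcn, Postn and Lum were at 0 throughout; that sum was 2.45 and 1.63 CPM with random shRNA and 0.685 and 0.824 CPM with MERVL shRNA, and its part in the results was not tested. Across the features tested the random shRNA libraries had a Pearson r of 0.972 on log2(CPM + 1) and the MERVL shRNA libraries one of 0.995, so the control pair stood further apart than the treated pair. Random shRNA replicate 2 had an r of 0.987 with MERVL shRNA replicate 1 and of 0.985 with MERVL shRNA replicate 2, both above that with its own partner. Features are not independent replicates, and these values describe the libraries only.

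Most LTR-only copies gave few or no reads. In all 4 libraries together 428 copies (38.9%) had an estimated count of 0, 229 were listed above 0 in every library and 172 in a single library. A count of 0 over the pooled libraries allows up to 0.0519 CPM, taking 3 counts as the limit, which covers counting error only. By contrast 6 of the 690 copies of class L_I_L, which carry an LTR on each side of the internal part, were at 0 throughout. The mean level over the 4 libraries had a median of 0.0161 CPM over the 1101 LTR-only copies and 1.92 CPM over the copies of class L_I_L. These levels are not per length, and copies of the 2 classes differ in length, so the comparison is of reads gathered and not of transcripts.

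The number of copies with reads differed between libraries. In random shRNA replicate 1 there were 583 copies listed above 0, in random shRNA replicate 2 there were 434, and in MERVL shRNA replicates 1 and 2 there were 427 and 321. Thinned by calculation to the depth of the shallowest library, counts rounded to whole numbers would have given 463.3, 316.0, 257.3 and 194.8 copies in the same order. At equal depth the random shRNA libraries thus had the most copies with reads, and the gap within the random shRNA pair was larger than that between random shRNA replicate 2 and MERVL shRNA replicate 1. Of the 172 copies listed in a single library, 106 were in random shRNA replicate 1, 18 in random shRNA replicate 2, and 32 and 16 in MERVL shRNA replicates 1 and 2.

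Few copies carried most of the RNA. The 10 most abundant in a library held 38.5% and 36.3% of its LTR-only counts with random shRNA, and 39.6% and 45.3% with MERVL shRNA. To reach 50% of those counts took 18 and 23 copies in the random shRNA libraries and 18 and 14 in the MERVL shRNA libraries. Copies with a mean of at least 0.5 CPM over the 4 libraries numbered 60 and held 70.1% of the class in the mean, and 32 copies had a mean of at least 1 CPM. The other 613 copies with reads were below 0.5 CPM; the nearest below that level was copy 1011 at 0.488 CPM and the nearest above it copy 1600 at 0.502 CPM.

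**Figure D1:**
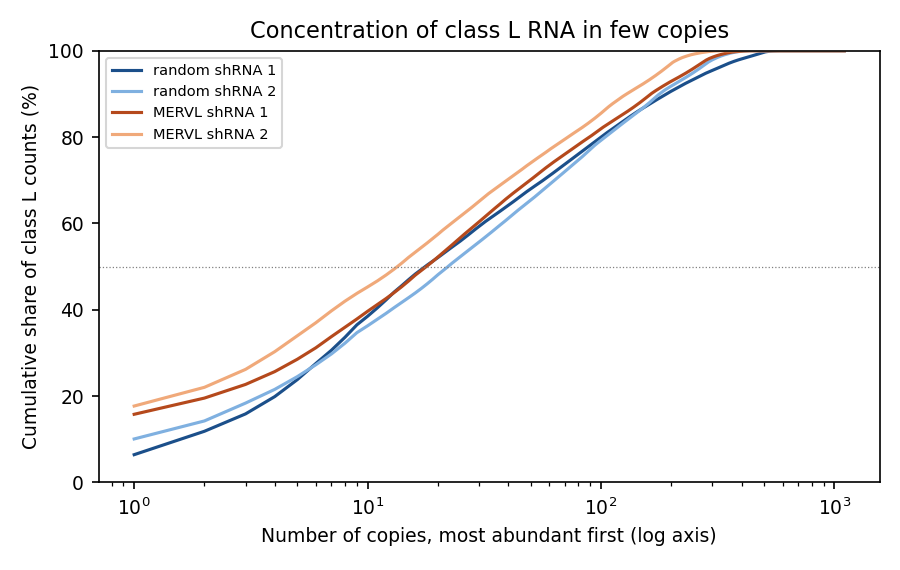
Cumulative share of LTR-only (class L) estimated counts, in percent, against the number of copies taken from the most abundant down, on a log axis, with 1 line per library and a dotted line at 50%. The line of MERVL shRNA replicate 2 lies highest, reaching 50% with 14 copies, and that of random shRNA replicate 2 needs 23.

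Summed over all 1101 copies, RNA over lone LTRs was lower in each MERVL shRNA library than in either random shRNA library. The sum was 400.8 CPM in random shRNA replicate 1, 137.9 CPM in random shRNA replicate 2, 103.3 CPM in MERVL shRNA replicate 1 and 70.4 CPM in MERVL shRNA replicate 2. The groups did not overlap, but random shRNA replicate 1 was 2.91-fold above its partner, whereas random shRNA replicate 2 exceeded MERVL shRNA replicate 1 by a factor of 1.33. Group means were 269.4 ± 186 CPM (SD, n = 2) and 86.8 ± 23.3 CPM (SD, n = 2), and the former was 3.10-fold the latter. As a share of the library the sum took 0.0401% (95% Wilson interval 0.0391% to 0.0411%), 0.0138% (0.0131% to 0.0145%), 0.0103% (0.00984% to 0.0108%) and 0.00704% (0.00662% to 0.00748%) in the same order, where intervals cover counting error only.

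In the edgeR quasi-likelihood test, fitted with all genes and the sums of the other classes, the LTR-only sum had a log2 fold change of -1.63 ± 0.47 (SE, adjusted p = 0.282) and did not pass the threshold of 0.05. In that fit 0.00635% of 15739 features passed. Without random shRNA replicate 1 the value was -0.66 ± 0.17, and without random shRNA replicate 2 it was -2.20 ± 0.15. Without MERVL shRNA replicate 1 it was -1.94, and without MERVL shRNA replicate 2 it was -1.38. In each such fit the lone library of a group, control or MERVL shRNA, was assumed to vary like the pair of the other group. The size of the value depended strongly on which control library was kept. In bulk RNA fewer cells that transcribe these LTRs and less RNA per such cell cannot be told apart.

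**Figure D2:**
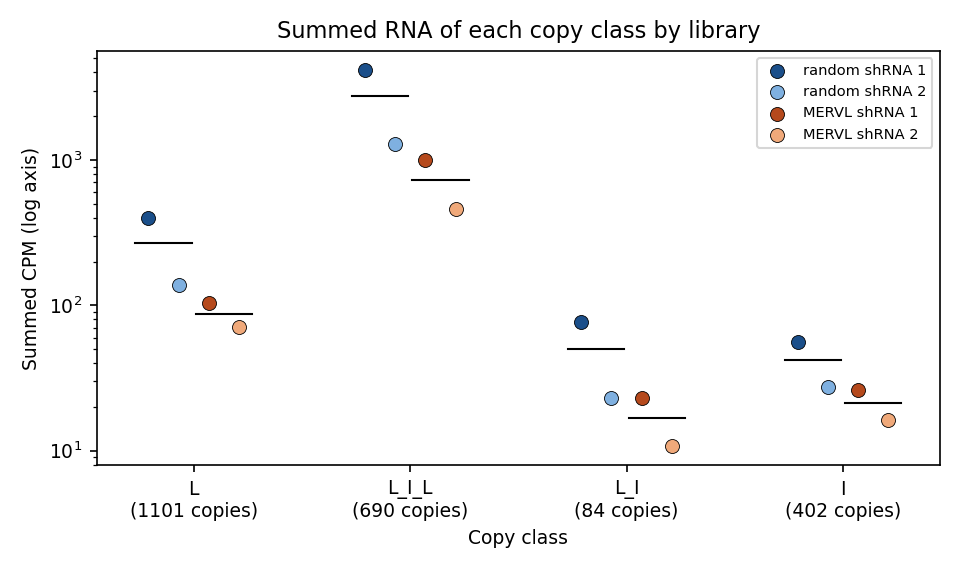
Summed CPM of each copy class in the 4 libraries, on a log axis, with black bars at the group means (n = 2 each). In class L the points run from 400.8 CPM in random shRNA replicate 1 to 70.4 CPM in MERVL shRNA replicate 2, and in every class random shRNA replicate 1 stands apart from the other 3 libraries.

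The sum of LTR-only copies kept about the same proportion to the full-length class L_I_L in 3 of the libraries. It was 9.58% and 10.8% of the L_I_L sum in random shRNA replicates 1 and 2, 10.3% in MERVL shRNA replicate 1 and 15.4% in MERVL shRNA replicate 2. MERVL shRNA replicate 2 was thus the highest, while MERVL shRNA replicate 1 lay between the random shRNA libraries. The mean log2 ratio was -3.30 ± 0.12 (SD, n = 2) with random shRNA and -2.99 ± 0.41 (SD, n = 2) with MERVL shRNA, a difference of 0.31 (exact permutation test, two-sided, p = 0.667). With 2 libraries against 2 this test cannot go below 0.333. Without copy 482, described next, the difference was 0.15.

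The most abundant LTR-only copy in the mean did not follow the class. Copy 482 stood at 14.9 and 13.9 CPM in the random shRNA libraries and at 16.3 and 12.5 CPM in the MERVL shRNA libraries, from 161.5 to 262 estimated counts. The groups overlapped fully, and the highest library was 1.31-fold the lowest. Its log2 fold change was -0.01 ± 0.21 (edgeR adjusted p = 0.994), a sign that turned to 0.050 with TMM scaling. Copy 482 made up 3.73% and 10.1% of LTR-only counts in the random shRNA libraries and 15.8% and 17.7% in the MERVL shRNA libraries. It was the leading copy in 3 of the libraries. In random shRNA replicate 1 the leading copy was copy 224, with 6.43%.

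Copies 224, 225, 222 and 223 came next in mean level, and they belong to a run of consecutive numbers. Copies 220 to 225 each had a mean of at least 1 CPM, the longest such run of numbers in the class, and it was singled out after the values were seen. The sources used here do not say whether the numbers follow the order of copies along the genome. The 6 copies summed to 93.0 and 23.2 CPM with random shRNA and to 15.7 and 12.2 CPM with MERVL shRNA. That was 23.2%, 16.8%, 15.2% and 17.3% of the LTR-only counts in the same order. Random shRNA replicate 1 was 4.01-fold above random shRNA replicate 2 over these copies, and in all 6 the MERVL shRNA values lay below the controls, as in 29.1% of all features tested; since the run was picked by level after its values were seen, nothing is read from this.

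Among them copy 224 had the highest level of any LTR-only copy in a single library, with 25.8 CPM in random shRNA replicate 1. It stood at 4.37 CPM in random shRNA replicate 2 and at 3.06 and 2.59 CPM in the MERVL shRNA libraries, and its log2 fold change was -2.42 ± 0.78 (edgeR adjusted p = 0.330). Copy 225 was at 21.7 and 5.70 CPM against 3.88 and 2.89 CPM, with a log2 fold change of -2.03 ± 0.62. Copy 222 had the smallest gap in the control pair of the 6, with 16.0 and 5.76 CPM against 3.26 and 2.92 CPM. Copy 223 was at 16.1 and 4.08 CPM against 2.96 and 2.12 CPM. Copies 220 and 221 were lower than the other 4 in every library. Copy 220 was at 5.88 and 1.46 CPM against 1.09 and 0.687 CPM. The order of the libraries was the same in each of the 6, with random shRNA replicate 1 far above the others and MERVL shRNA replicate 2 lowest.

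Of the remaining copies among the 12 with the highest means, copy 1821 is the one whose estimated counts were whole in every library. It had 245 and 44 counts with random shRNA and 44 and 23 counts with MERVL shRNA, which is 15.8 and 3.78 CPM against 2.74 and 1.58 CPM, and a log2 fold change of -2.18 ± 0.70 by edgeR, adjusted p = 0.330. Copies 730, 1131 and 517 resembled one another, all between 11.6 and 12.3 CPM in random shRNA replicate 1 and at 2.19, 2.08 and 1.89 CPM in random shRNA replicate 2. In the MERVL shRNA libraries copy 730 was at 1.39 and 0.975 CPM, copy 1131 at 1.59 and 0.961 CPM and copy 517 at 1.99 and 1.27 CPM. In copy 517 the groups overlapped, since MERVL shRNA replicate 1 exceeded random shRNA replicate 2.

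Copies 875 and 1819 had a smaller gap in the control pair. Copy 875 stood at 7.73 and 3.47 CPM with random shRNA and at 1.40 and 0.973 CPM with MERVL shRNA, so that random shRNA replicate 2 had 2.48 times the level of MERVL shRNA replicate 1. Copy 1819 was at 7.94 and 3.36 CPM against 1.84 and 0.961 CPM. Their log2 fold changes were -2.26 ± 0.52 and -1.99 ± 0.57 (edgeR adjusted p = 0.330 for each). Copy 198 was at 5.68 and 3.44 CPM against 2.68 and 3.05 CPM, with a log2 fold change of -0.68 ± 0.38 (edgeR adjusted p = 0.487), a smaller difference than in the other copies of this paragraph.

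The 5 further copies with the smallest p did not pass either, and in each of them the groups did not overlap, the random shRNA libraries being the higher. All 5 reached the level needed for testing, about 0.665 CPM in 2 libraries, with random shRNA only. That order was thus fixed by the filter. Copy 1591 had 21.5 and 9 estimated counts with random shRNA and 1 in each MERVL shRNA library, or 1.39 and 0.774 CPM against 0.0622 and 0.0686 CPM. Its log2 fold change was -3.92 ± 0.71 (edgeR adjusted p = 0.303), but this size rests on single counts with MERVL shRNA. Summed per group, 30 counts against 2 gave a 16.9-fold ratio with a 95% exact binomial interval of 4.30 to 146, for counting error only. Copy 1603 was at 2.76 and 0.688 CPM against 0.191 and 0.206 CPM, and copy 587 at 4.32 and 1.26 CPM against 0.444 and 0.412 CPM. Copies 1132 and 508 were at 1.94 and 1.58 CPM in random shRNA replicate 1 and at 0.343 and 0.115 CPM in MERVL shRNA replicate 2. Random shRNA replicate 2 had 2.76 to 2.98 times the level of MERVL shRNA replicate 1 in copies 508, 587 and 1132, where the whole class had 1.33-fold. They were picked for small p, so this is a description.

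**Figure D3:**
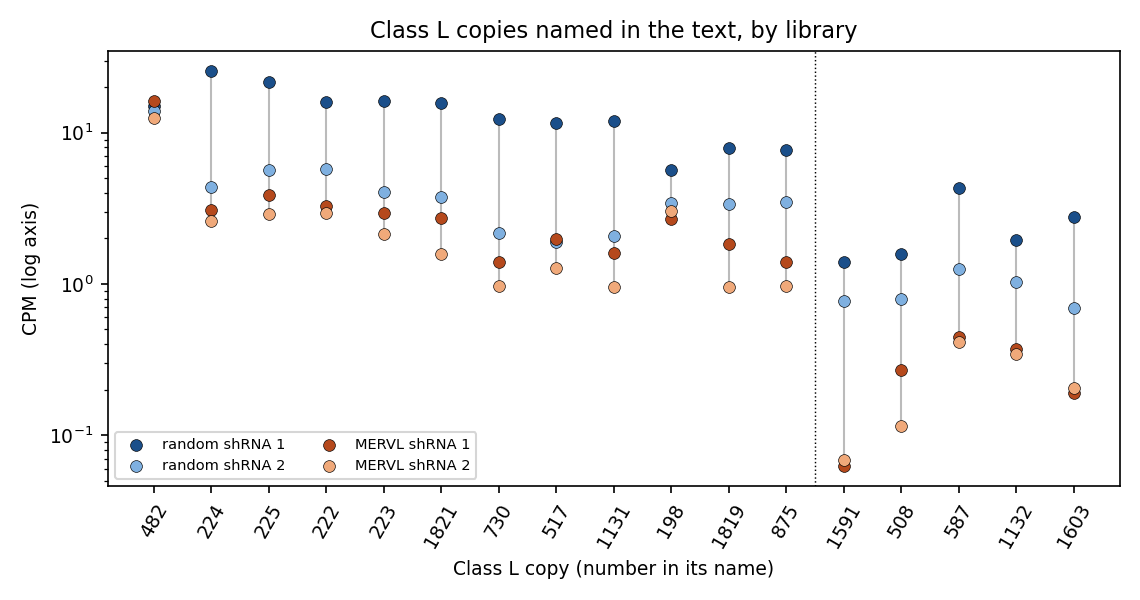
CPM of 17 LTR-only copies in each library, on a log axis, with grey lines joining the lowest and highest library of a copy. Left of the dotted line are the 12 copies with the highest means in order of the mean, and right of it the 5 further copies with the smallest p; copy 482 has its 4 points between 12.5 and 16.3 CPM, while copy 224 spans 2.59 to 25.8 CPM.

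Copies that barely differed between libraries were few. Among the 60 copies with a mean of at least 0.5 CPM, 6 had less than a 2-fold range over the 4 libraries: copies 82, 113, 201, 482, 1120 and 1710, a group chosen after its values were seen. Copy 1710 had 12 and 11 counts with random shRNA and 16 and 12 counts with MERVL shRNA. Copy 113 was at 1.43 and 1.23 CPM against 1.37 and 1.05 CPM. Together the 6 stood at 20.6 and 19.3 CPM with random shRNA and at 22.3 and 17.7 CPM with MERVL shRNA, and most of this was copy 482. They made up 5.13% and 14.0% of LTR-only counts in the random shRNA libraries and 21.6% and 25.1% in the MERVL shRNA libraries.

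Higher values in both MERVL shRNA libraries were also few. Copy 201 was at 1.74 and 1.48 CPM with random shRNA and at 2.23 and 1.94 CPM with MERVL shRNA, and its log2 fold change of 0.37 ± 0.38 did not pass (edgeR adjusted p = 0.727). Copy 771 was at 0.290 and 0.172 CPM, or 4.5 and 2 counts, against 0.685 and 0.789 CPM, or 11 and 11.5 counts. Its log2 fold change was 1.74 ± 0.56 (edgeR adjusted p = 0.330). These 2 were the copies with higher values in both MERVL shRNA libraries among the 44 that could be tested, beside 17.2% of all features tested, and they are named for that. Copy 771 reached the level needed for testing, about 0.665 CPM in 2 libraries, with MERVL shRNA only. Its order was thus fixed by the filter.

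Single copies were tested together with all genes, and 44 of the 1101 had enough reads for the filter, which asked for about 0.665 CPM in 2 libraries. Of these, 11 reached that level in both random shRNA libraries and in neither MERVL shRNA library, 1 the other way round, and 19 in all 4 libraries, so the 44 are not an even sample of the class. None was called lower or higher by edgeR at an adjusted p under 0.05, beside 0% of the 16353 features called lower and 0.00612% called higher. At an unadjusted p under 0.05, 26 of the 44 were lower and 1 higher, where 10.5% of all features were lower. Their median log2 fold change was -1.97 and that of all features tested -0.07. Limma-voom called 0 of the 44. DESeq2 called 7 of 591 LTR-only copies (1.18%) lower and 0 higher, beside 0.580% of all features lower. It gave no adjusted p to 573 of the 591, which could not be called. Both shares include features without an adjusted p, so they understate the share among those that could be called. The 7 were copies 222, 223, 225, 730, 875, 1131 and 1821. Without a filter on low counts edgeR called 40 of 591 (6.77%) lower and 0 higher, a share near the 4.31% of all features called lower. Without random shRNA replicate 1 the 42 LTR-only copies tested had a median log2 fold change of -0.77, beside -0.08 over all features. Without random shRNA replicate 2 the 97 tested had one of -2.62, beside -0.06. Both fits have the limits of a lone control library given above.

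The order of the libraries was described over copies chosen by level. Of the 60 copies with a mean of at least 0.5 CPM, 41 had both MERVL shRNA values below the random shRNA values and 1 had both above. Over all 16895 features at that level 29.3% were lower in this sense and 17.0% higher. A mean over all libraries favours copies that are high in random shRNA replicate 1. Taken instead by a mean of at least 0.5 CPM in the MERVL shRNA libraries, a level that favours copies high there, 30 copies remained, of which 20 were lower and 2 higher, beside 27.4% of all features lower. Scaling bears on the background, as 29.1% of the 16353 tested features were lower and 17.2% higher by column totals, but 24.0% and 22.2% with TMM factors. Among the 44 tested copies 33 were lower by column totals and 32 with TMM factors. With a library left out the filter asks for the level in 1 library, so it also admits copies that are high in a single library, where being above the rest is largely fixed. The lower copies then numbered 32 of 42 without random shRNA replicate 1, beside 49.6% of all features tested. They numbered 91 of 97 without random shRNA replicate 2, beside 47.9%. Without MERVL shRNA replicates 1 and 2 they numbered 84 of 95 and 70 of 100, beside 41.7% and 36.3%. Nothing is read from these counts.

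Random shRNA replicate 1 was the highest library in 54 of the 60 copies, and MERVL shRNA replicate 2 the lowest in 47. In 41 of them random shRNA replicate 1 was over 2-fold above random shRNA replicate 2, in 23 over 4-fold, and in 3 it was below, with a median ratio of 3.50. Random shRNA replicate 2 was above MERVL shRNA replicate 1 in 43 copies and above MERVL shRNA replicate 2 in 55, and the median ratio of random shRNA replicate 2 to MERVL shRNA replicate 1 was 1.33. These copies were chosen by a mean to which random shRNA replicate 1 adds most; copy 417, at 2.84 and 0.0860 CPM with random shRNA and 0.436 and 0.206 CPM with MERVL shRNA, reached 0.5 CPM through that library alone. Among the 30 copies chosen by their MERVL shRNA mean, random shRNA replicate 1 was highest in 23 and over 2-fold above random shRNA replicate 2 in 18, and the median ratio of the control libraries was 2.77.

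**Figure D4:**
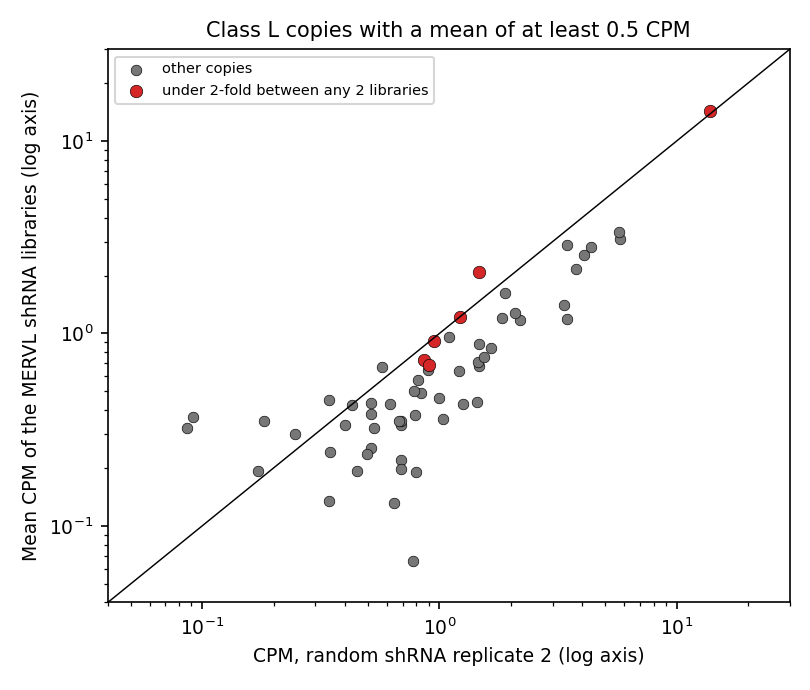
Mean CPM of the 2 MERVL shRNA libraries against CPM in random shRNA replicate 2, both on log axes, for the 60 LTR-only copies with a mean of at least 0.5 CPM; the line marks equal values. The mean of the MERVL shRNA libraries lies below random shRNA replicate 2 in 51 copies, and the 6 steady copies in red lie near the line.

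Many estimated counts were not whole. Of the 673 LTR-only copies with reads, 220 had whole estimated counts in all 4 libraries and 453 had a fraction in at least 1. Counting programs can give fractions by sharing out a read that matches several places, but how these arose was not tested. Values with a fraction held 80.8% and 70.4% of LTR-only counts in the random shRNA libraries and 59.0% and 74.3% in the MERVL shRNA libraries, against 98.1% to 99.2% of the counts of class L_I_L. The 220 copies with whole counts summed to 55.1 and 18.3 CPM with random shRNA and to 13.7 and 8.85 CPM with MERVL shRNA. Random shRNA replicate 1 was 3.01-fold above replicate 2 in these copies and 2.89-fold in the 453 others, and the log2 fold change of their sum was -1.71 ± 0.50 (edgeR adjusted p = 0.282), close to that of the whole class.

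Some copies could not be told apart in the table at all. There were 21 sets of LTR-only copies, 49 copies in total, with the same fractional values in all 4 libraries to the 2 decimals deposited. Copies 207 and 208 were such a pair, with 0.7, 0.55, 0.41 and 0.06 estimated counts each, and so were copies 649 and 823. Of the 684 copies of class L_I_L with reads, none shared its values with another. The highest estimated count in any of the 49 was 1.8, far below those of the copies named above.

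The authors' normalized scores, which the second deposited table gives for features above a low count limit, cover 73 of the 1101 copies and show another picture of the control pair. Over these 73 the estimated counts summed to 288.1 and 98.6 CPM in the random shRNA libraries and to 77.6 and 53.4 CPM in the MERVL shRNA libraries. The scores summed to 2072 and 2341 with random shRNA and to 1172 and 794 with MERVL shRNA. By CPM random shRNA replicate 1 was above replicate 2 in 68 copies, with a median ratio of 2.45. By score it was above in 3, equal in 13 and below in 57, with a median ratio of 0.882. Copy 224, for example, had scores of 131 and 154 where its CPM were 25.8 and 4.37. The sources used here do not say how the scores were made, so a test on them takes over whatever step drew the control libraries together.

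On log2(score + 1) limma put the LTR-only sum at -1.19 ± 0.22 (adjusted p = 0.0358), and called 32 of the 73 copies lower and 1, copy 771, higher. Of the 17823 features with scores in that fit, 2581 (14.5%) were called lower and 2338 higher. Copy 482 kept its level there too, with 207 and 204 against 237 and 185.

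**Figure D5:**
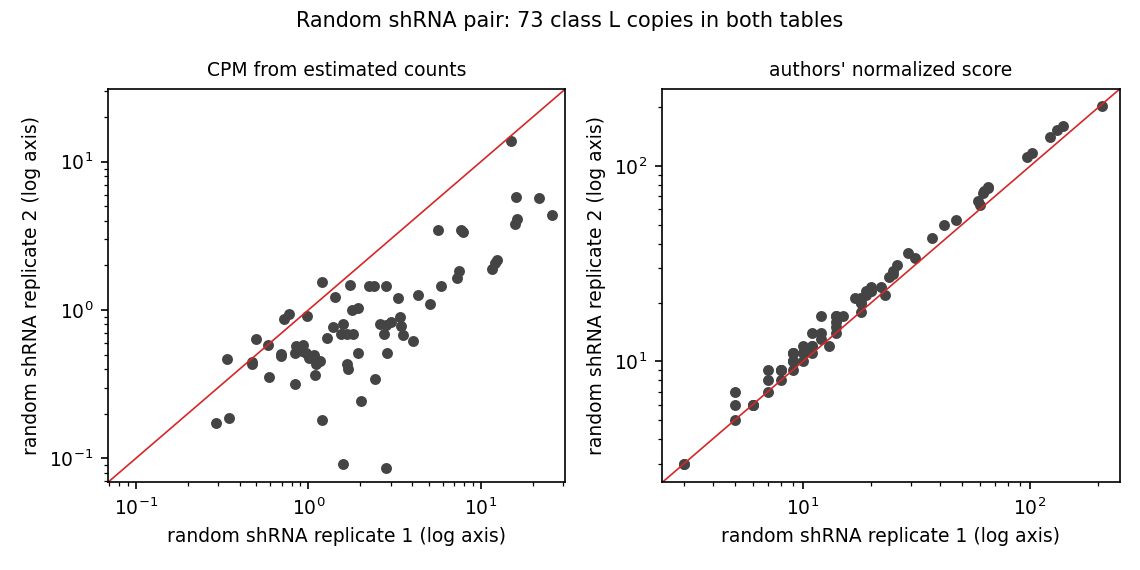
Random shRNA replicate 2 against random shRNA replicate 1 for the 73 LTR-only copies in both tables, as CPM from estimated counts on the left and as the authors' normalized score on the right, all axes logarithmic and the red line marking equal values. On the left 68 copies lie below the line, and on the right 57 lie above it.

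The RNA of genes whose proteins are known to switch this LTR on or off was read beside it. Among the activators, Zscan4c, Zscan4d and Zscan4f belong to the same gene family, so the activators are not independent readings. Of 8 activators, all tested, none passed edgeR over all features, 6 were lower at an unadjusted p under 0.05, beside 10.5% of all features. In 7 the MERVL shRNA values lay below those of either control, beside 29.1% of all features tested. Their median log2 fold change was -1.98, where that of all features was -0.07. Duxf3, which encodes the Dux protein that binds MT2_Mm, was at 6.94 and 2.99 CPM with random shRNA and at 0.827 and 1.21 CPM with MERVL shRNA. Its log2 fold change was -2.29 ± 0.54 (edgeR adjusted p = 0.330), and it did not pass with TMM scaling, DESeq2 scaling or limma-voom either. It passed with DESeq2, with no filter, with a replicate block and with the authors' scores. Without random shRNA replicate 1 the value was -1.56, and without random shRNA replicate 2 it was -2.77. Gata2, a GATA transcription factor, was at 1.87 and 1.12 CPM against 0.373 and 0.343 CPM. Nelfa, a subunit of the negative elongation factor, was at 261.2 and 124.9 CPM against 86.9 and 80.8 CPM, and Zscan4f, a zinc finger gene of the 2-cell-like state, at 602.7 and 181.7 CPM against 123.0 and 63.8 CPM. As in the LTR sum, random shRNA replicate 1 was the highest library in each of these 4 genes.

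Of 25 repressors, all tested, none passed either and 1 had an unadjusted p under 0.05, being higher with MERVL shRNA. Their median log2 fold change was -0.02, and 5 had both MERVL shRNA values below the controls and 5 above, beside 29.1% and 17.2% of all features tested. Trim28, the corepressor that brings histone methylation to retroelements, was at 2666 and 1616 CPM with random shRNA and at 1590 and 1689 CPM with MERVL shRNA, with a log2 fold change of -0.39 ± 0.26 (edgeR adjusted p = 0.572). That value turned to 0.021 without random shRNA replicate 1 and was -0.70 without random shRNA replicate 2. In that gene, too, random shRNA replicate 1 stood apart from the other 3 libraries.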

How the data were processed

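The submitters' processing notes name Trim Galore, HISAT2 and genome build mm10; the sources used here do not give versions, the counting program or any use of strand. The authors deposited estimated counts for genes and single MERVL or MT2_Mm copies, partly fractional, and a second table of normalized scores rounded to whole numbers, whose making is not stated. Groups and replicate numbers came from sample titles, and table columns were matched to titles by name.

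CPM used column totals, 11628887 to 16067854 estimated counts. Estimated counts were rounded and tested with edgeR 4.0.16 (quasi-likelihood, column totals, filterByExpr, no replicate term; R 4.3.3), with Benjamini-Hochberg adjustment over all features in a fit; standard errors came from the F statistic. Alternatives were TMM and DESeq2 scaling, DESeq2 1.42.0, limma-voom (limma 3.58.1), no filter, a replicate block, each library left out, whole-count copies, leaving out copy 482, and limma on the scores (log2, pseudocount 1, mean score of 1 or more). Leaving out the run of numbered copies and choosing copies by a mean of 0.5 CPM were added after the data were seen. The tests were checked on simulated counts. These were drawn without the gap seen within the control pair, so the check does not bear on results that depend on it.

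Named were the 12 copies with the highest mean, any called copy and the 5 further copies with the smallest p; of the regulators, the 4 with the smallest p, Duxf3 and Trim28. Copies named outside this rule (82, 113, 201, 207, 208, 220, 221, 417, 649, 771, 823, 1011, 1120, 1600 and 1710) were chosen after their values were seen. Members, lists and this rule were chosen with earlier results of these data known. A planned split of copies by their place relative to genes was not run, since copy positions were not used here.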

Additional observations from a re-analysis of the deposited data

How the results depend on the processing

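The LTR-only sum was lower with MERVL shRNA under every alternative run, and its adjusted p stayed above 0.05 with other scalings, DESeq2, limma-voom, whole-count copies, and without copy 482 or copies 220 to 225. It passed with no filter (-1.63, adjusted p = 3.3e-17), with the authors' scores (-1.19) and with a replicate block (-1.47, adjusted p = 0.0160). With a library left out it ran from -2.20 to -0.66. Those fits are given by size only, and whether they passed is not read, since a lone library shows no spread. LTR-only copies called lower numbered 7 with DESeq2, 40 with no filter, 32 with scores (and 1 higher), 16 of 44 with the replicate block (3.83% of all features) and 0 to 68 with a library left out, the 68 of 97 without random shRNA replicate 2 (18.5% of all features). Same-numbered libraries share only a number in the labels; their deviations from the group means had an r of 0.22 over 16353 features. Copies with both MERVL shRNA values below the controls numbered 220 of 591 with no filter (24.7% of all features), 20 of 30 chosen by their MERVL shRNA mean (27.4%), and 32 to 91 with a library left out (36.3% to 49.6%). The log2 ratio of LTR-only to L_I_L copies differed by -0.018 with whole-count copies, of which class L_I_L had 5 with reads, and by 0.03 to 0.60 with a library left out. Copy 482 (MT2_Mm482L) had 0.050 with TMM scaling, 0.054 with DESeq2 size factors, 0.063 in DESeq2, 0.027 with scores and -0.21 to 0.17 with a library left out, and Trim28 -0.70 to 0.021 with a library left out. Where no value above shows it, the cause was not tested. Counts under 10 per library, as in most of the 613 copies below 0.5 CPM, limit what can be compared.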
